A study of Homo sapiens with 4 samples.

Results

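The aminoacyl-tRNA synthetases are the enzymes that join each amino acid to its transfer RNA. They were followed in 4 RNA sequencing libraries of BEAS-2B, an immortalised line of human bronchial epithelial cells kept in N2B27 medium. Members were taken by a rule on gene symbols that holds no measured value, and 38 of the 39634 genes with values in the table are described. These were 18 genes for cytosolic enzymes or their subunits, 16 for mitochondrial enzymes, 2 for enzymes that serve both compartments (GARS1 and KARS1), and the complex scaffold genes AIMP1 and AIMP2. A control short hairpin RNA was expressed in the cells of 2 libraries, and the cells of the other 2, in the same medium, are labelled as knocked down by shRNA for Fer, a non-receptor tyrosine kinase. The labels do not give the number of hairpins or clones, nor whether replicates were grown apart. A p-value below thus reflects only how far these libraries spread, and that spread may be technical.

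Protein synthesis in human cells draws on separate pools of charged tRNA. The cytosolic enzymes charge tRNAs made in the nucleus for cytosolic ribosomes, and several of them sit in a multi-synthetase complex held together by AIMP1, AIMP2 and EEF1E1. The mitochondrial enzymes are mostly products of separate nuclear genes whose names end in 2, and they charge the tRNAs encoded by mitochondrial DNA. Shortage of amino acids and stress of the endoplasmic reticulum or of mitochondria raise many of the cytosolic enzymes through the transcription factor ATF4, which binds elements of the form TGATGNAA.

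Promoter letters are shown for GARS1 and TARS1, whose log2 fold changes were among the lowest of the family, and for AARS1 and IARS1 as examples of the same letters at genes whose groups overlapped. A shared interval is shown for HARS1 and HARS2. They come from RefSeq (GRCh38.p14) windows of 300 bases, running from 250 bases before to 50 bases after a gene start. Such a window was found for 32 of the 38 genes, and AARS2, LARS1, TARS3, VARS1, VARS2 and YARS1 had none. The letters TGATGNAA, searched on both strands, were in windows of 7 of the 16 cytosolic or dual genes (AARS1, CARS1, GARS1, IARS1, MARS1, NARS1 and TARS1) and of 1 of the 14 mitochondrial genes (YARS2). Some genes have several windows, so these counts by gene are not shares of windows. By window, 8 of the 44 member windows held the letters, beside 3.62% of all 35116 windows. The stricter form TGATGCAA, which is contained in the first, was in windows of 6 member genes, none of them mitochondrial. By window, these were 6 of the 44 member windows, beside 0.866% of all windows. Below, capitals mark the match, which lies on the opposite strand and so reads as its reverse complement, and each stretch runs 5′ to 3′ in the direction of its gene.
GARS1, chr7:30594815-30594877, plus strand: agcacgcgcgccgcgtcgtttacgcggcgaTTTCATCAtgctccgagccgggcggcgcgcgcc
TARS1, chr5:33440937-33440974, plus strand: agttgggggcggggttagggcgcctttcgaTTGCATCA
AARS1, chr16:70289656-70289723, minus strand: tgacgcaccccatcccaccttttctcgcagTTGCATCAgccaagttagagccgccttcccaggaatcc
IARS1, chr9:92293698-92293740, minus strand: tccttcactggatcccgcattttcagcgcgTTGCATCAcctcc
The TARS1 match lies just after a start, and the others lie before one. A match is a description of letters and not a measured binding site.

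HARS1 and HARS2, the cytosolic and mitochondrial histidine enzymes, start 85 bases apart and point away from each other. The interval between their RefSeq starts is shown because the pair is one of those whose members differed most in their change.
HARS1 and HARS2, chr5:140691371-140691454, plus strand: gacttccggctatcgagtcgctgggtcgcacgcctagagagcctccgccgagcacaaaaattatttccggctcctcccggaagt
This interval of 84 bases is 59.5% G and C.

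The libraries held 21422976 to 25169713 counts. FER, the gene named in the labels, had 16.3 and 21.2 CPM (counts scaled by library size) in the controls and 17.8 and 20.1 CPM in those labelled Fer knockdown. Its groups overlapped, and its log2 fold change was 0.02 ± 0.17 (SE, n = 2 per group; 95% interval -0.37 to 0.41; adjusted p = 0.976, edgeR's quasi-likelihood test). FER mRNA was therefore not lower where the label says it should be, and every direction below refers to the libraries labelled Fer knockdown. Transcripts of the mitochondrial chromosome took 16.9% (16.89 to 16.92) and 19.4% (19.41 to 19.45) of the control counts and 9.62% (9.607 to 9.632) and 9.37% (9.361 to 9.384) of the others, with Wilson 95% intervals that cover counting error only. The part of this share in the results was not tested. Of 8 airway epithelial markers 7 were tested and none was called. Their summed levels were 2680 and 3413 CPM in the controls and 2871 and 2901 CPM in the other libraries. Most of that sum was KRT8, at 1602 and 2094 CPM against 1826 and 1848 CPM, so it does not describe each marker. KRT17, CDH1 and EPCAM were higher without overlap (log2 fold changes 0.77, 0.45 and 0.46), where 25.8% of all tested genes were. KRT7 was lower without overlap (-0.40), where 23.4% of all tested genes were, and the other 3 tested markers overlapped. Of 8 fibroblast markers 4 were tested, THY1 alone was called (lower), and DCN and LUM were at 0 in every library. Their summed level was 574 and 608 CPM in the controls against 354 and 390 CPM. Most of it was THY1, at 457 and 501 CPM against 264 and 297 CPM. The other tested markers went different ways, with log2 fold changes of -0.46 (COL1A1), 0.009 (PDGFRB) and 1.39 (COL3A1, at most 1.145 CPM). The part of these markers in the results was not tested. Immune, endothelial and neural markers each summed to less than 3 CPM in every library.

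Of the 38 members, 36 passed the filter on low counts, and none was called as different between the groups (edgeR's quasi-likelihood test, Benjamini-Hochberg adjusted p at 0.05). Over all 15336 tested genes, 99 were called (0.646%), 43 higher (0.28%) and 56 lower (0.365%). At an unadjusted p of 0.05, 2 members were higher (HARS2 and NARS2) and 5 lower (GARS1, TARS1, AIMP2, WARS1 and FARSA), where 17.7% of all tested genes reached that level, 8.95% higher and 8.77% lower. With DESeq2 in place of edgeR, 2 members were called, both lower (GARS1 and TARS1), beside 3.78% of all genes, and with limma-voom none was. Scaling by library totals alone shifted the median over all genes from 0.01 to 0.18 in log2 fold change, and it called HARS2 (higher). The number of calls moved with the control libraries. Without control replicate 1, 11 members were called beside 29.5% of all genes, and without control replicate 2, 10 members beside 20.6%. GARS1, TARS1, WARS1 and AIMP2 were lower and HARS2 and VARS1 higher in both of those reduced fits. The single control library is there assumed to vary like the libraries labelled Fer knockdown, whose members differed less between replicates (median absolute log2 difference 0.06 against 0.20 in the controls). Without Fer knockdown replicate 1 no member was called, and without Fer knockdown replicate 2 only VARS1 was (for GARS1 adjusted p = 0.820 and 0.973, edgeR).

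Values of both groups did not overlap for 17 of the 36 tested members, 9 of them higher and 8 lower in the libraries labelled Fer knockdown. Among all tested genes, 25.8% were higher without overlap and 23.4% lower. The counts by compartment were as follows, and their difference was not tested. Of the 17 tested cytosolic genes, none was higher without overlap and 5 were lower (FARSA, FARSB, RARS1, TARS1 and WARS1). Of the 15 tested mitochondrial genes, 8 were higher (AARS2, FARS2, HARS2, IARS2, LARS2, NARS2, PARS2 and YARS2) and 1 was lower (RARS2). The median log2 fold change was -0.04 for the cytosolic genes (range -0.45 to 0.10) and 0.09 for the mitochondrial genes (range -0.18 to 0.48), beside 0.01 for all tested genes. With library totals alone these medians were 0.12 and 0.25, beside 0.18 for all genes. That scaling shifts all genes alike, so it leaves the difference between the class medians as it was. The counts without overlap above hold for TMM-scaled values only. The TMM factors were 0.940 and 0.949 in the controls and 1.061 and 1.056 in the others. With library totals alone genes can change side, and the counts without overlap were not made again. Under library totals, FARSB, RARS1 and RARS2 had positive log2 fold changes (0.064, 0.053 and 0.011). With 1 library left out, the cytosolic median ran from -0.064 (without control replicate 2) to -0.025 (without control replicate 1) and the mitochondrial median from 0.074 (without Fer knockdown replicate 2) to 0.162 (without control replicate 1), with 0.139 without Fer knockdown replicate 1. In bulk RNA, fewer cells of a type and less RNA per cell cannot be told apart.

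**Figure D1:**
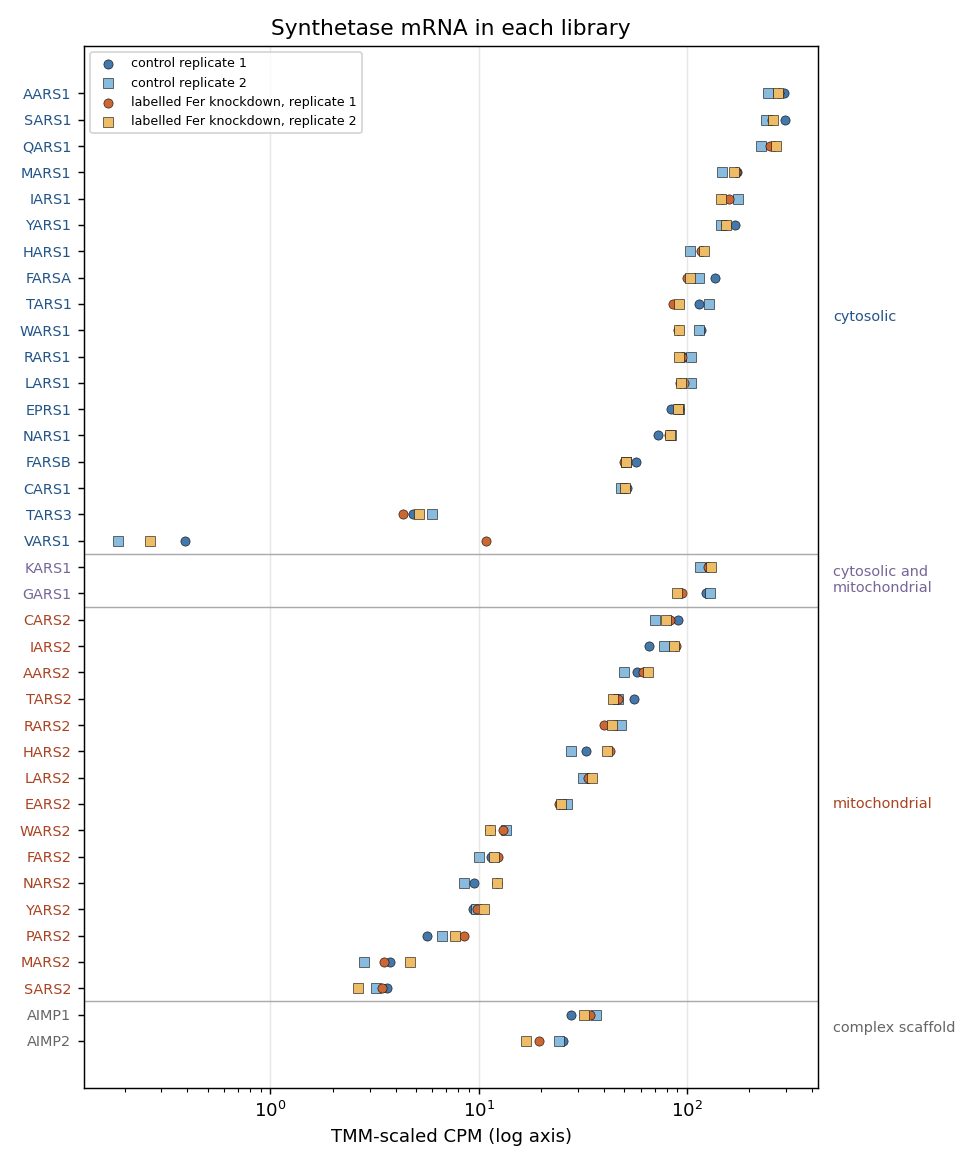
Scaled CPM (log axis) of each synthetase and scaffold gene, with 1 point per library and genes grouped by compartment. Cytosolic genes mostly lie near or above 50 CPM and mitochondrial genes spread from about 3 to 90 CPM. VARS1 reaches 10.9 CPM in 1 library and stays under 0.4 CPM in the other 3, and VARS2, at 0 in all 4 libraries, is not drawn.

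Among the cytosolic enzymes, TARS1, which charges threonine tRNA, had 114 and 128 CPM in the controls and 86.2 and 91.6 CPM in those labelled Fer knockdown. Both controls were above both of the other libraries, and the log2 fold change was -0.45 ± 0.13 (SE, n = 2 per group; 95% interval -0.73 to -0.16; adjusted p = 0.120, edgeR's quasi-likelihood test). TARS3, a second cytosolic threonine enzyme, was much less abundant, at 4.84 and 5.995 CPM against 4.32 and 5.20 CPM, and its groups overlapped (log2 fold change -0.19 ± 0.23, SE; adjusted p = 0.729, edgeR).

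WARS1, the tryptophan enzyme, which interferon-gamma is known to raise, had 117 and 115 CPM in the controls and 90.8 and 92.1 CPM in the other libraries. The replicates lay close together and the groups apart, with a log2 fold change of -0.34 ± 0.12 (SE; 95% interval -0.61 to -0.07; adjusted p = 0.183, edgeR). FARSA, the catalytic alpha subunit of the phenylalanine enzyme, had 137 and 115 CPM against 99.8 and 104 CPM. The controls differed from each other more than the lower control differed from the other group, and the log2 fold change was -0.31 ± 0.13 (SE; 95% interval -0.60 to -0.01; adjusted p = 0.268, edgeR). FARSB, its beta subunit, had 57.0 and 51.3 CPM against 49.8 and 51.2 CPM, so that its lower control and its higher knockdown-labelled library nearly met.

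RARS1, the arginine enzyme of the multi-synthetase complex, had 96.6 and 105 CPM in the controls against 95.1 and 91.6 CPM, an ordering without overlap whose gap was small (log2 fold change -0.11 ± 0.12, SE; adjusted p = 0.692, edgeR). HARS1 had 118 and 104 CPM against 118 and 121 CPM, and its groups overlapped (log2 fold change 0.10 ± 0.13, SE; 95% interval -0.18 to 0.39; adjusted p = 0.723, edgeR). The other 10 tested cytosolic genes, AARS1, CARS1, EPRS1, IARS1, LARS1, MARS1, NARS1, QARS1, SARS1 and YARS1, had log2 fold changes from -0.09 (IARS1) to 0.09 (MARS1), and in none of them were the groups apart.

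The dual enzymes, each made from a single gene, went separate ways in their values. GARS1, which charges glycine tRNA in cytosol and mitochondria, had 123 and 130 CPM in the controls and 94.7 and 89.98 CPM in those labelled Fer knockdown. The groups were well apart, and its log2 fold change of -0.45 ± 0.12 (SE, n = 2 per group; 95% interval -0.73 to -0.18) had the smallest p of all tested members (adjusted p = 0.108, edgeR's quasi-likelihood test). KARS1, the lysine enzyme of both compartments and of the complex, had 125 and 115 CPM against 127 and 131 CPM. Its groups did not overlap either, but the log2 fold change of 0.11 ± 0.12 (SE; 95% interval -0.16 to 0.38; adjusted p = 0.697, edgeR) was smaller than its error.

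Among the mitochondrial enzymes, HARS2 had 32.7 and 27.8 CPM in the controls and 42.8 and 41.3 CPM in those labelled Fer knockdown. Both of the latter were above both controls, with a log2 fold change of 0.48 ± 0.14 (SE, n = 2 per group; 95% interval 0.16 to 0.80; adjusted p = 0.137, edgeR's quasi-likelihood test). With the replicate number as a block, HARS2 was called (log2 fold change 0.48, adjusted p = 0.0491, edgeR) beside 6.46% of all genes. Of its exonic bases, 14.2% overlap exons of other genes, and without strand such reads cannot be assigned to one gene or the other.

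NARS2, the mitochondrial asparagine enzyme, had 9.49 and 8.49 CPM in the controls and 12.2 and 12.3 CPM in the others. The groups were apart, and the log2 fold change was 0.45 ± 0.17 (SE; 95% interval 0.06 to 0.84; adjusted p = 0.221, edgeR). IARS2, the isoleucine enzyme, had 65.7 and 78.1 CPM against 88.9 and 86.6 CPM, for a log2 fold change of 0.29 ± 0.14 (SE; edgeR's adjusted p = 0.306). PARS2, which charges proline tRNA, had 5.67 and 6.64 CPM against 8.498 and 7.72 CPM, for a log2 fold change of 0.40 ± 0.20 (SE; edgeR's adjusted p = 0.340). In both of these the controls lay below the other libraries, and the 95% intervals included 0.

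AARS2, the alanine enzyme, had 57.6 and 49.9 CPM in the controls and 61.4 and 65.02 CPM in the others, which did not overlap (log2 fold change 0.23 ± 0.14, SE; adjusted p = 0.409, edgeR). MARS2, the methionine enzyme, was close to the low end of the family, at 3.77 and 2.81 CPM against 3.52 and 4.71 CPM. Its groups overlapped, and its log2 fold change of 0.33 ± 0.27 (SE; edgeR's adjusted p = 0.579) had a wide error. FARS2, the phenylalanine enzyme, which works as a single chain, had 11.4 and 10.1 CPM against 12.4 and 11.9 CPM, without overlap and with a log2 fold change of 0.17. LARS2 and YARS2 were also higher without overlap, by log2 fold changes of 0.07 and 0.09, smaller than the median replicate difference of 0.21 of mitochondrial genes in the controls. RARS2, at 44.6 and 48.2 CPM against 40.0 and 43.5 CPM, was the mitochondrial enzyme whose groups lay apart in the other direction (log2 fold change -0.15). The other 5 tested mitochondrial genes, CARS2, EARS2, SARS2, TARS2 and WARS2, had overlapping groups and log2 fold changes from -0.18 (SARS2) to 0.01 (CARS2). SARS2, at 70 to 78 counts per library, shares 83.1% of its exonic bases with other genes, so its level is uncertain.

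**Figure D2:**
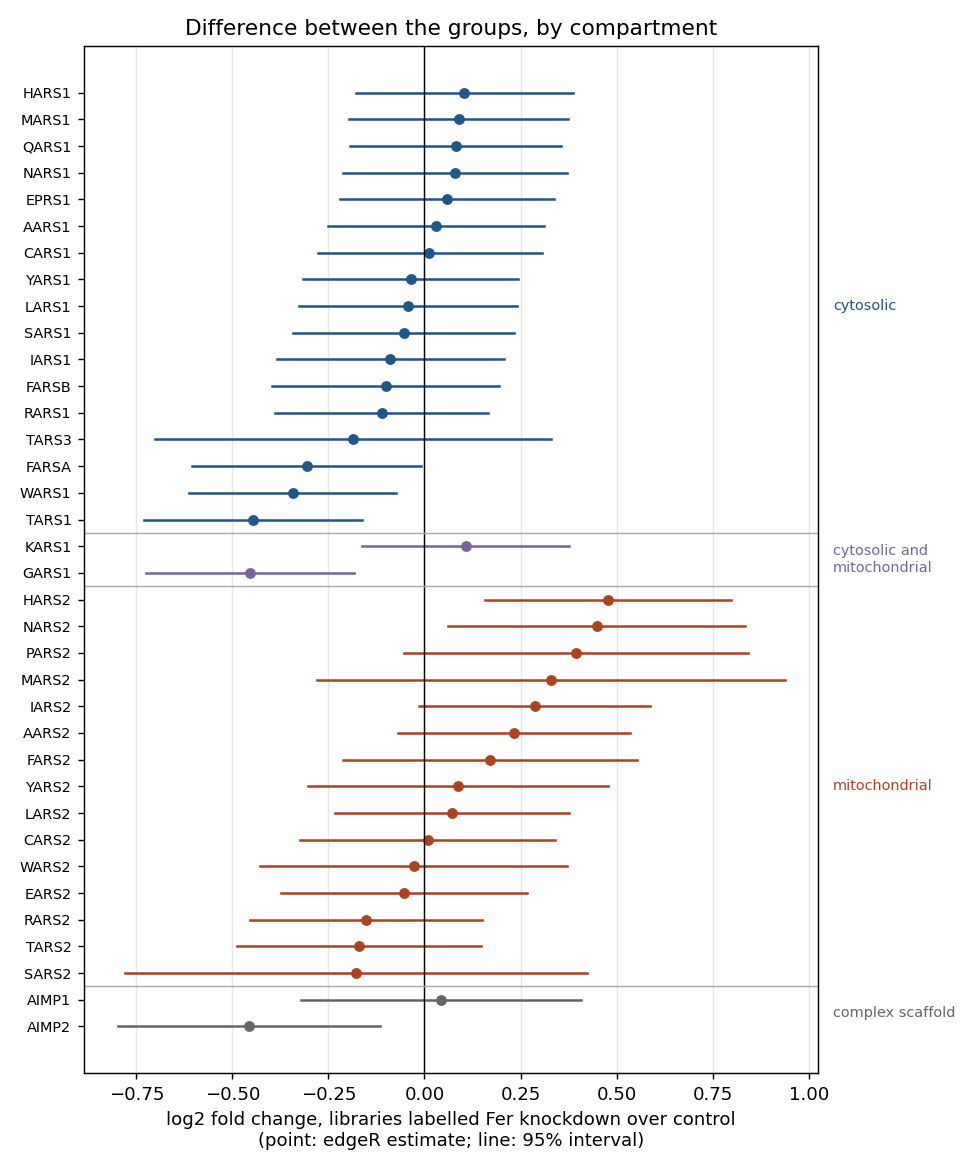
Log2 fold change (libraries labelled Fer knockdown over control, edgeR) of the 36 tested members, with 95% intervals, grouped by compartment and ordered by value. Intervals of TARS1, WARS1, FARSA, GARS1 and AIMP2 lie below 0 and those of HARS2 and NARS2 above 0 before adjustment, and no member passed the adjusted threshold.

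Summed over members, the cytosolic enzymes had 2290 and 2135 CPM in the controls and 2135 and 2145 CPM in those labelled Fer knockdown, ranges that overlapped. The mitochondrial enzymes summed to 460.5 and 434 CPM in the controls and 484 and 481 CPM in the others, which lay above both controls. Both sums hold for TMM-scaled values only and were not made again with library totals alone. A ratio of sums within a library does not depend on that scaling. Group means rose most for IARS2 (71.9 to 87.75 CPM), HARS2 (30.2 to 42.1 CPM) and AARS2 (53.8 to 63.2 CPM). They fell for TARS2 (51.4 to 45.7 CPM) and RARS2 (46.4 to 41.8 CPM), among others. The sum thus follows a few abundant genes and does not describe each gene of the class. The ratio of the cytosolic to the mitochondrial sum was 4.97 and 4.92 in the controls and 4.41 and 4.46 in the libraries labelled Fer knockdown, so the groups did not overlap. With 2 libraries a group no two-sided permutation test could give a p below 0.333. Per kilobase of the length given in the table, the ratio of the median cytosolic to the median mitochondrial level was 5.27 and 5.42 in the controls and 5.19 and 5.05 in the others. With the longest principal transcript of GENCODE release 29 as the length, an alternative added after seeing the data, these ratios were 5.61 and 5.69 against 4.83 and 4.46.

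For 15 amino acids, a cytosolic and a mitochondrial gene could be set side by side within each library, EPRS1 serving for both glutamate and proline and FARSA standing for the phenylalanine enzyme. Pairs that share EPRS1 are not independent. The difference between cytosolic and mitochondrial log2 fold change was negative in 11 of the 15 pairs, with a median of -0.24, which was -0.16 without Fer knockdown replicate 2. The ratio of cytosolic to mitochondrial level was lower without overlap in the libraries labelled Fer knockdown for 7 pairs (phenylalanine, isoleucine, histidine, asparagine, proline, tryptophan and alanine) and higher for 1 (glutamate), and it overlapped for the other 7. Of all tested genes taken singly, 25.8% were higher and 23.4% lower without overlap. No such share was made for ratios of gene pairs, so these counts have no measure to stand beside.

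With FARSA as the cytosolic gene, the phenylalanine pair had the most negative difference, FARSA lying at 23.8 and 22.5 times the level of FARS2 per kilobase of table length in the controls and 16.0 and 17.4 times in the others. With the other subunit, FARSB, an alternative added after seeing the data, its difference was -0.27 and ranked 7 of the 15. The isoleucine pair followed that with FARSA, with IARS1 at 1.25 and 1.26 times IARS2 in the controls and 0.997 and 0.939 times in the others. For the histidine pair, HARS1 was at 0.950 and 0.981 times HARS2 in the controls and at 0.721 and 0.768 times in the libraries labelled Fer knockdown. By transcript length, these ratios were 3.72 and 3.84 against 2.82 and 3.01 for histidine and 1.71 and 1.73 against 1.37 and 1.29 for isoleucine. For FARSA and FARS2 they were 11.2 and 10.6 against 7.52 and 8.16. Which gene is higher thus depends on the length used, for histidine in every library and for isoleucine only in those labelled Fer knockdown. In the controls IARS1 was above IARS2 under both lengths. In all 3 pairs the replicates of a group lay closer to each other than to the other group. The difference of log2 fold changes was -0.48, -0.38 and -0.37 for these pairs, and it was not tested, since the pairs were ranked by it.

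**Figure D3:**
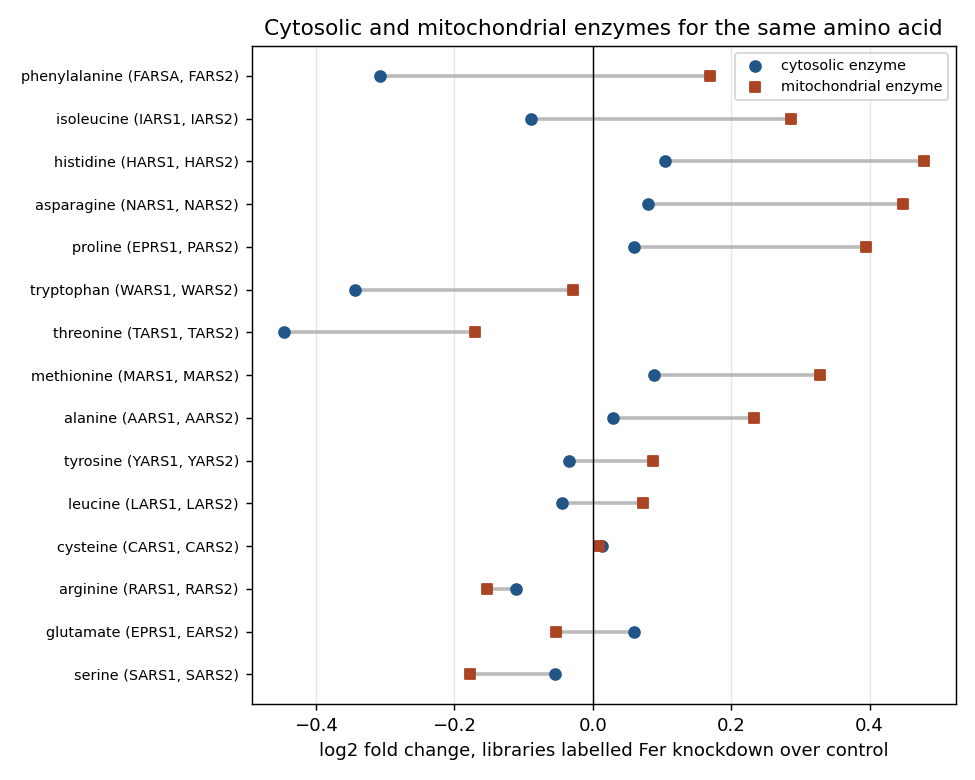
Log2 fold change (libraries labelled Fer knockdown over control, edgeR) of the cytosolic enzyme (circles) and the mitochondrial enzyme (squares) for the same amino acid, joined by a line and ordered by their difference. The cytosolic value lies below the mitochondrial one in 11 of the 15 pairs, and the line is longest for FARSA (-0.31) and FARS2 (0.17), a rank that FARSB in place of FARSA does not keep.

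Levels between genes were compared per kilobase, as the mean of the 4 libraries in CPM per kilobase. By the table's lengths the serine enzyme SARS1 was highest at 68.5, followed by the glutamine enzyme QARS1 at 53.6 and FARSA at 46.8. By transcript length SARS1 (142) and QARS1 (89.2) kept their places and AARS1, the alanine enzyme, was next at 78.5, where the table's length had put it at 26.6. The lowest tested genes under both lengths were SARS2, TARS3 and MARS2. They were at 1.04, 1.14 and 1.22 by the table's lengths and at 1.57, 1.41 and 1.23 by transcript length. The place of SARS2 is uncertain, since it shares 83.1% of its exonic bases with other genes. The cytosolic gene was above its mitochondrial partner in all 4 libraries for 12 of the 15 pairs by the table's lengths and for 14 by transcript length. The cysteine pair was the exception under both, with CARS2 above CARS1. The table's length was far longer for some members, at 17366 bases for GARS1 where its transcript has 2634, and at 14155 for HARS1 where its transcript has 2440.

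The scaffold genes of the multi-synthetase complex had unlike values. AIMP2 had 25.4 and 24.4 CPM in the controls and 19.5 and 16.8 CPM in those labelled Fer knockdown, so that the groups were apart, with a log2 fold change of -0.46 ± 0.15 (SE, n = 2 per group; 95% interval -0.80 to -0.12; adjusted p = 0.168, edgeR's quasi-likelihood test). Of its exonic bases, 38.7% overlap exons of other genes. AIMP1 had 27.7 and 36.5 CPM against 34.3 and 31.9 CPM, with the libraries labelled Fer knockdown lying between the controls (log2 fold change 0.04 ± 0.16, SE; adjusted p = 0.926, edgeR). EEF1E1, the third scaffold protein and no member by the rule, had a log2 fold change of 0.10. Of 7 synthetase genes of the complex, none was called. Without overlap, 1 was higher (KARS1) and 1 lower (RARS1), where 25.8% and 23.4% of all tested genes were. Their median log2 fold change was 0.06, beside 0.01 for all genes.

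Of 13 enzymes that ATF4 is known to raise, 12 were tested and none was called, with 3 lower without overlap (GARS1, TARS1 and WARS1), where 23.4% of all genes were, and none higher. Their median log2 fold change was -0.04 (range -0.45 to 0.09). The 7 cytosolic and dual genes outside that list had a median of -0.10, with 1 higher and 3 lower without overlap. Of 25 other genes of the ATF4 amino acid response, none was called, 4 were higher and 1 lower at an unadjusted p of 0.05 (8.95% and 8.77% of all genes), 8 were higher and 5 lower without overlap (25.8% and 23.4% of all genes), and the median was 0.09. Leaving out control replicate 1 gave a median of 0.26 and leaving out control replicate 2 one of -0.089. The smallest p values there belonged to DDIT4, an inhibitor of mTORC1 signalling (log2 fold change 0.54, adjusted p = 0.0867, edgeR), SLC3A2, an amino acid transporter subunit (0.51, adjusted p = 0.120), and ATF3, a stress-induced transcription factor (0.66, adjusted p = 0.124). DDIT4 shares 48.5% of its exonic bases with other genes, and ASNS, another of the 25, shares 79.7%. ASNS had 1 and 12 counts in the controls and 2 and 12 in the others (log2 fold change -0.13 ± 0.99, SE), so its change cannot be read here. ATF4 itself had 437 and 365 CPM in the controls against 351 and 358 CPM, lower without overlap (log2 fold change -0.18, adjusted p = 0.505, edgeR).

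Other steps that act on charged tRNA were not called either. The 4 genes for mitochondrial amidation and formylation, which make glutaminyl-tRNA and the formylated starter tRNA, had a median log2 fold change of 0.05, from -0.17 (GATB) to 0.07 (GATC), and the median was -0.007 without control replicate 1. The 11 mitochondrial translation factors had a median of -0.19, and of 0 without Fer knockdown replicate 2. MTIF3, an initiation factor of mitochondrial ribosomes, had the smallest p there, at 19.4 and 22.9 CPM in the controls and 13.8 and 12.5 CPM in the others (log2 fold change -0.69 ± 0.16, SE; adjusted p = 0.0836, edgeR). The 4 genes of tRNA editing and export had a median of -0.06, from -0.57 (DTD2, which removes mischarged D-amino acids) to 0.27 (DTD1), and the median was 0.045 without control replicate 1. The 4 tested interferon-gamma response genes had a median of -0.15, of which GBP1, a guanylate-binding protein, was lowest at -0.33.

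Of 22 mitochondrial tRNA genes, the substrates of the mitochondrial enzymes, 15 were tested and 1 was called, lower, where 0.365% of all tested genes were. MT-TP, the proline tRNA, had 122 and 173 CPM in the controls and 51.9 and 61.5 CPM in the others (log2 fold change -1.38, adjusted p = 0.0159, edgeR). At the unadjusted p level used above (edgeR), 7 of the 15 were lower and none higher, where 8.77% and 8.95% of all genes were. Groups did not overlap for 10 that were lower and none that was higher (23.4% and 25.8% of all genes). The median absolute log2 difference between replicates was 1.465 in the libraries labelled Fer knockdown and 0.333 in the controls. The median log2 fold change of the 15 was -1.29, and it ran from -2.31 (without Fer knockdown replicate 1) to -0.54 (without Fer knockdown replicate 2). Libraries made from polyadenylated RNA do not measure mature tRNAs, and the share of the mitochondrial chromosome given above includes these genes.

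VARS1 and VARS2, the cytosolic and mitochondrial valine enzymes, were the members that failed the filter. VARS1 had 8 and 4 counts in the controls and 247 and 7 counts in those labelled Fer knockdown, so replicate 1 of the latter stood alone. VARS2 had 0 counts in all 4 libraries. Without the filter VARS1 was called (log2 fold change 4.24, adjusted p = 7.54e-25, edgeR), and that value rests on 1 library. Both genes lie on chromosome 6, and a check made after their values were seen compared the 20 coding genes on each side in RefSeq's order. Near VARS1, 29 of 38 neighbours in the table (76.3%) had under 10 counts in every library, and near VARS2 28 of 38 (73.7%). That share was 27.9% over all 18937 coding genes and 5.41% to 48.7% around the other 36 members. The neighbours of VARS2 included TUBB, a beta-tubulin, with 2 or fewer counts in each library. The level of the valine enzymes therefore cannot be read from this table.

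**Figure D4:**
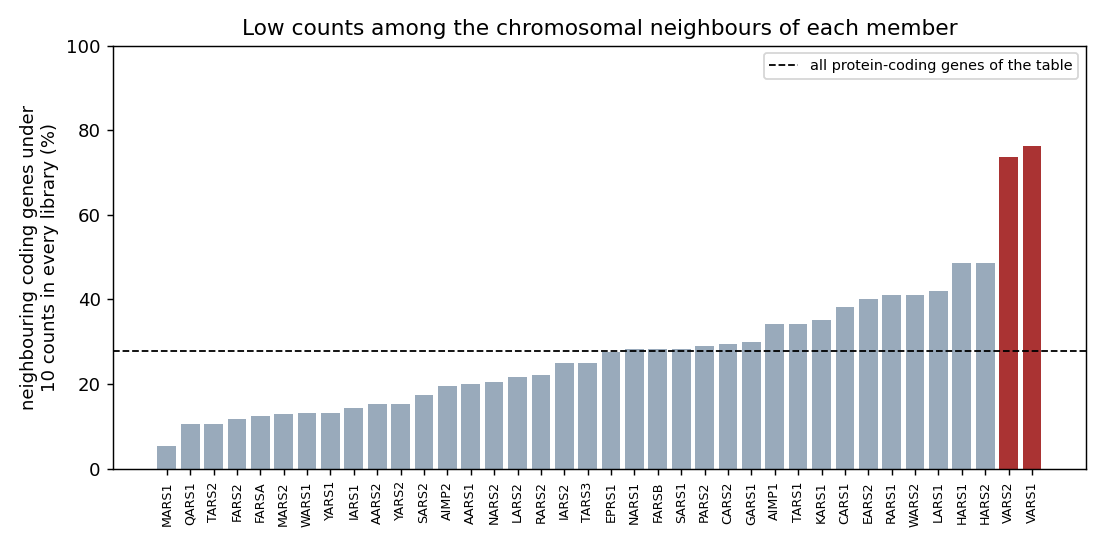
Percent of neighbouring coding genes (20 on each side in RefSeq's order) with under 10 counts in every library, for each synthetase and scaffold gene. VARS1 at 76.3% and VARS2 at 73.7% stand above the other members, which reach at most 48.7%, and the dashed line marks all coding genes (27.9%).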

How the data were processed

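Polyadenylated RNA was sequenced in 2 control libraries and 2 libraries labelled Fer knockdown. The authors deposited a single table that holds raw counts for each gene and its length, per the file headers. The submitters' processing notes name HISAT2, featureCounts, DESeq2, hg19 and mm10 without roles or versions, and the strand setting is not given in the sources used here. Of 39635 entries, 1 held no values. Of 16 pseudogenes of the members, 15 were at 0 in every library.

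Genes were filtered with filterByExpr, scaled by TMM and tested in edgeR 4.0.16 (R 4.3.3) with the quasi-likelihood test, two-sided, with Benjamini-Hochberg adjustment across the 15336 genes that passed and a threshold of 0.05. The model had 2 residual degrees of freedom. DESeq2 1.42.0 and limma 3.58.1 served as alternatives. The scripts were tested on simulated data. Exon overlaps and transcript lengths came from GENCODE release 29. Some genes that meet the symbol rule are not reported here. Every member described is named, with full statistics for the 6 smallest p values per compartment, the 3 pairs that differed most, the dual enzymes and the scaffolds. Of each list, members past the threshold or up to 3 with the smallest p are named, and other names were chosen after their values were seen. Members, lists and tests were chosen with earlier results of these data known.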

Additional observations from a re-analysis of the deposited data

How the results depend on the processing

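The number of all genes called, 99, was 990 with the replicate block, 192 with upper-quartile factors, 443 with library totals alone (396 higher and 47 lower, where the 99 split into 43 and 56), 580 with DESeq2, 178 with limma-voom, 993 without the filter, 8 against a 1.5-fold change, 687 with the length trend removed, and 56 to 4734 with 1 library left out. Without the mitochondrial chromosome, 41 were higher and 35 lower. The number of members called, 0, was 1 with the replicate block (HARS2), 1 with library totals alone (HARS2, adjusted p = 0.0464, edgeR), 2 with DESeq2, 2 without the filter (VARS1 and GARS1) and 0 to 11 with 1 library left out. Replicate numbers were not shown to pair the libraries (correlation of deviations 0.0373), so the block is given as an alternative alone.

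The cytosolic median, -0.04, was 0.12 with library totals alone. The mitochondrial median, 0.09, was 0.25 with library totals alone and ran from 0.074 to 0.162 with 1 library left out. Their difference, -0.13, ran from -0.187 to -0.104 and was -0.12 with the length trend removed. The median pair difference, -0.24, ran from -0.243 to -0.161 with 1 library left out, the latter without Fer knockdown replicate 2, and was -0.28 with a filter of 5 CPM and -0.24 with FARSB in place of FARSA. FER ran from -0.16 to 0.19.

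List medians under library totals alone were 0.21 for complex proteins that are no enzymes, 0.21 for amidation and formylation, -0.023 for mitochondrial translation factors, 0.10 for tRNA editing and export, 0.25 for the ATF4 response and 0.019 for the interferon-gamma response. Amidation and formylation gave 0.038 with DESeq2, its size factors or the mitochondrial chromosome left out, 0.031 with a filter of 5 CPM and 0.032 with the length trend removed. With that filter, translation factors gave -0.12 and editing and export 0.052. With 1 library left out, the medians ran from -0.147 to -0.009 (complex proteins), -0.007 to 0.029 (amidation), -0.18 to 0.00 (translation factors), -0.156 to 0.045 (editing), -0.089 to 0.255 (ATF4), -0.26 to -0.14 (interferon-gamma) and -2.31 to -0.54 (mitochondrial tRNAs).

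Of 502 alternative values for single members, 446 kept direction and side of the threshold, 24 became calls and 32 changed sign, none of the 32 as a call. Library totals alone gave YARS1 0.13, SARS1 0.11, WARS2 0.14, FARSB 0.064, LARS1 0.12, RARS1 0.053, RARS2 0.011, IARS1 0.075 and EARS2 0.11. CARS2 was -0.002 with DESeq2, its size factors or the mitochondrial chromosome left out and -0.007 with the 5 CPM filter, where CARS1 was -0.002. With 1 library left out, AARS1 ran from -0.12 to 0.16, CARS1 from -0.064 to 0.063, EPRS1 from -0.007 to 0.099, HARS1 from -0.011 to 0.195, IARS1 from -0.219 to 0.024, LARS1 from -0.134 to 0.022, MARS1 from -0.051 to 0.211, NARS1 from -0.025 to 0.164, QARS1 from -0.044 to 0.185, SARS1 from -0.217 to 0.094, YARS1 from -0.162 to 0.069, CARS2 from -0.19 to 0.20, SARS2 from -0.38 to 0.004, WARS2 from -0.157 to 0.082 and AIMP1 from -0.15 to 0.23. The cause of these shifts was not tested. With 2 libraries a group, the width of the 95% intervals limits which differences these data can show.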
